A study of Mus musculus with 2 samples.

Results

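Ghr, Jak2, Stat5b, Socs2, Cish, Igf1, Igfals, Igfbp1, Igfbp2 and Igfbp4 are genes of the growth hormone and insulin-like growth factor (IGF) axis. They were chosen by name from the deposited expression table, which lists 8551 genes, and 10 of the 10 had a value. The table holds liver mRNA of 2 groups of adult male mice aged 9 weeks, taken about 3 h into the light cycle. The normal group was wild type on a C57BL/6 background, and the diabetic group was db/db, with the same background by the labels. The db mutation removes the signalling form of the leptin receptor throughout the body, and db/db mice are known to overeat and to become obese before and while they are diabetic, so the groups are not matched for these traits. The study used several mice per group from more than 1 supplier, pooling of their RNA is not stated, and there was 1 library per group. Differences therefore have no replicate check, and every interval below covers counting error only. Lepr, the gene mutated in db/db mice, was not analysed here, so the labels were not checked on it.

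Growth hormone from the pituitary binds its receptor on hepatocytes, and the receptor-bound kinase JAK2 then phosphorylates STAT5B, which enters the nucleus and activates transcription. Its known liver targets include Igf1, the acid-labile subunit gene Igfals, and the feedback inhibitors Socs2 and Cish. Circulating IGF1 is carried by binding proteins, of which IGFBP1 is known to be suppressed by insulin and IGFBP2 to respond to leptin, and the acid-labile subunit prolongs its life in blood by binding the complex that IGF1 forms with IGFBP3 or IGFBP5. In rodents the pattern of growth hormone release differs between the sexes, and many liver genes follow that pattern.

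Expression was read as short tags that start at GATC, the site cut by Dpn II, and values are the tags of a gene per 1000000 clean tags of the library, a unit called TPM by the authors. The following lines show where the tag nearest the 3′ end would lie for the 5 genes that differed most and for Igfbp4, whose tag is shared. They were read from GENCODE transcripts (release for the build GRCm38), with GATC in capitals, and the tags that were in fact read are not given in the table.
Igfbp2: GATCggggccccctggaacat
Cish: GATCatgccaaggccccttac
Socs2: GATCctgtatttgtctttttt
Igfbp1: GATCtgtgtctgatgcacatt
Igfals: GATCttaccgccaaccagctc
Igfbp4: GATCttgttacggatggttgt
The Igfbp2 tag lies in coding sequence of exon 3 of 4 (chr1:72849627-72849647, plus strand) and the Igfals tag in coding sequence of exon 2 of 2 (chr17:24881254-24881274, plus). The other tags shown lie in the 3′ untranslated region of the last exon, for Cish at chr9:107301323-107301343 (plus), for Socs2 at chr10:95411967-95411987 (minus), for Igfbp1 at chr11:7202411-7202431 (plus) and for Igfbp4 at chr11:99054156-99054176 (plus). Of the 10 genes, 8 had this tag in the 3′ untranslated region and 2 in coding sequence. For 9 of the 10 the tag was found in transcripts of 1 gene. The Igfbp4 tag was found, at any GATC site, in transcripts of 22 genes, Igfbp4 included. Whether it lies nearest the 3′ end in the other genes was not examined. The level of Igfbp4 is uncertain to the extent that this tag was counted. The transcripts held between 2 GATC sites, in Igfbp2, and 17, in Stat5b. Levels of different genes are not compared per molecule here.

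STAT5 proteins bind the letters TTCNNNGAA, which read the same on both strands. In the RefSeq promoter table (GRCm38.p6, 250 bases before to 50 after each start), 9 of the 10 genes were matched through 14 windows, and Socs2 was not matched. The motif was found in 3 of these windows, of Cish and Igfals, against 8.3% of all 32851 windows. The Cish window is shown because it holds the motif at 2 places, which 0.457% of all windows do (chr9:107296409-107296708, plus strand, motif in capitals).
Cish promoter: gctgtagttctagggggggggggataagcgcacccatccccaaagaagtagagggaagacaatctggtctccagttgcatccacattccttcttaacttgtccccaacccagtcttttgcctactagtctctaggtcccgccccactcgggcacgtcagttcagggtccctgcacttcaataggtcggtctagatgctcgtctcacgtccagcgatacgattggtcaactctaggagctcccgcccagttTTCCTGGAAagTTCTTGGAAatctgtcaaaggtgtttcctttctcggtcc
The motifs began 0 and 11 bases downstream of the annotated start, as TTCCTGGAA and TTCTTGGAA. Igfals held TTCTCAGAA 236 bases and TTCCTAGAA 58 bases upstream of its respective annotated starts. With the narrower form TTCCNGGAA, which is contained in the first motif, 1 of the 9 matched genes held a match, Cish, against 1.35% of all 27025 genes with a window. These matches describe the letters of the windows and were not tied to any binding measurement.

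Among the axis genes, the binding protein genes Igfbp1 and Igfbp2, the feedback inhibitor genes Cish and Socs2, and Igfals were at least 1.5-fold lower in the diabetic library, and Igfbp4 was higher by less than that. Igfbp2 was 21.9-fold lower, Cish 5.40-fold, Socs2 3.63-fold, Igfbp1 2.78-fold and Igfals 1.61-fold. Of the 10 genes, 5 were at least 1.5-fold lower and 0 at least 1.5-fold higher, where over all 8551 genes 15.3% were at least 1.5-fold lower and 34.4% at least 1.5-fold higher. When a false discovery rate (FDR) under 0.001 was also asked for, from an exact binomial test of the reads adjusted over all 8551 genes, 4 of the 10 were lower and 0 higher, and the share over all genes was 8.19% lower and 22.9% higher. Under each of 4 other scalings between the libraries, 7 of the 10 were lower with both criteria, the further genes being Jak2, Stat5b and Socs2, and over all genes the calls were then closer to balanced, with 1271 higher and 1147 lower under trimmed mean of M values (TMM) scaling against 1955 and 700 as deposited. This test compares the libraries and not the conditions. The axis genes were chosen with earlier results of these data known, so their counts are no test against the shares over all genes.

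The normal library held 10278530 clean tags and the diabetic library 13508232, as computed from the equal steps of the values, so 1 read was worth 0.0973 TPM and 0.0740 TPM. The reads behind an axis gene ranged from 25 (Socs2) to 4708 (Igfbp4) in the normal library and from 9 (Socs2) to 9143 (Igfbp4) in the diabetic library. The median log2 ratio of diabetic over normal was 0.25 over all listed genes and -0.63 over the 10 axis genes. Of the 10, 7 had a ratio below 0, as did 38.1% of all genes, and 9 lay below the median of all genes. Scaling by the listed genes in place of all clean tags lowered every log2 ratio by 0.25 (TMM) to 0.31 (median ratio). Ratios near 0 therefore change sign with the scaling, as given beside each gene.

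**Figure D1:**
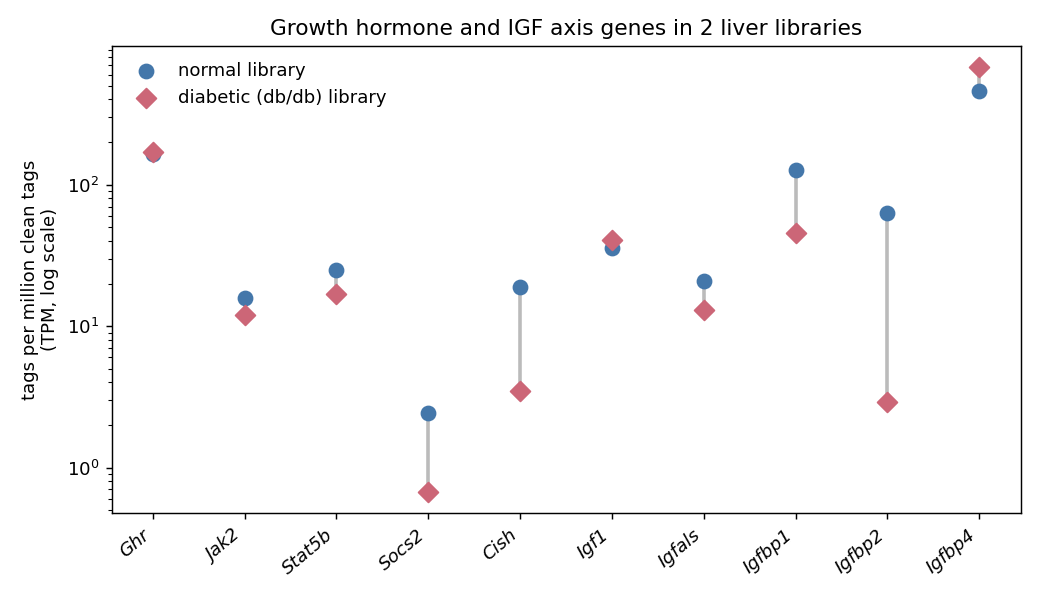
Level of each axis gene in TPM (tags per 1000000 clean tags, log axis) in the normal and the diabetic library, 1 point per library, with a grey line joining the libraries of a gene. The points lie apart for Igfbp2 (63.2 and 2.89 TPM) and Cish (18.8 and 3.48 TPM) and nearly coincide for Ghr (165 and 172 TPM).

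Ghr, which encodes the growth hormone receptor, was at 165 TPM (1699 reads) in the normal library and 172 TPM (2317 reads) in db/db liver. The log2 ratio was 0.053 (95% counting interval -0.038 to 0.14), an interval that includes 0, and under TMM scaling the ratio was -0.20. Jak2, the kinase that carries the signal, was at 15.9 TPM (163 reads) in the normal and 12.0 TPM (162 reads) in the diabetic library, with log2 ratio -0.40 (-0.73 to -0.080). Stat5b, the transcription factor downstream of it, was at 24.8 TPM (255 reads) and 16.7 TPM (226 reads), a log2 ratio of -0.57 (-0.83 to -0.30). The intervals of Jak2 and Stat5b lay below 0. Both differences were under 1.5-fold as deposited, with Stat5b close to that threshold at 1.48-fold, and both passed it under each of the 4 other scalings.

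Relative to Ghr in the same library, which removes the scaling between libraries, Stat5b reads were lower in the diabetic library by a log2 change of -0.62 (-0.90 to -0.34) and Jak2 reads by -0.46 (-0.79 to -0.12). The ratio of Jak2 to Stat5b changed by 0.17 (-0.26 to 0.59), with an interval that includes 0. These are 3 of 13 such pairs of axis genes computed.

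Cish encodes an SH2 protein that is induced by STAT5 and dampens signalling from cytokine receptors. It was at 18.8 TPM (193 reads) in the normal library and 3.48 TPM (47 reads) in the diabetic library. The diabetic level was 5.40-fold lower, with a log2 ratio of -2.43 (-2.92 to -1.97) and FDR = 8.2e-31 in the exact binomial test. Its position among the 8551 genes moved from rank 2275 to rank 6203 by level. Only 0.865% of the listed genes had a lower ratio.

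Socs2, a suppressor of cytokine signalling that limits growth hormone action, was the least abundant of the 10 by tags. It was at 2.43 TPM (25 reads) in the normal library and 0.67 TPM (9 reads) in the diabetic library, 3.63-fold lower. Its log2 ratio of -1.86 had a wide interval (-3.15 to -0.72), and with FDR = 0.0011 in the exact binomial test it missed the threshold as deposited, while it passed under each of the 4 other scalings. The table lists genes with a mean of about 1 TPM or more, and Socs2 lay under 1 TPM in the diabetic library, so it was listed through its normal level. The other 9 genes exceeded 1 TPM in both libraries.

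Relative to Ghr, the reads of Cish changed by -2.49 (-2.99 to -2.01) and those of Socs2 by -1.92 (-3.21 to -0.77) on the log2 scale. Relative to Stat5b, the reads of Cish changed by -1.86 (-2.42 to -1.32). The ratio of Socs2 to Cish changed by 0.56 (-0.82 to 1.83), an interval that includes 0 but is too wide to show that they changed alike. The values of Socs2 in these ratios depend on its listing through the normal level.

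**Figure D2:**
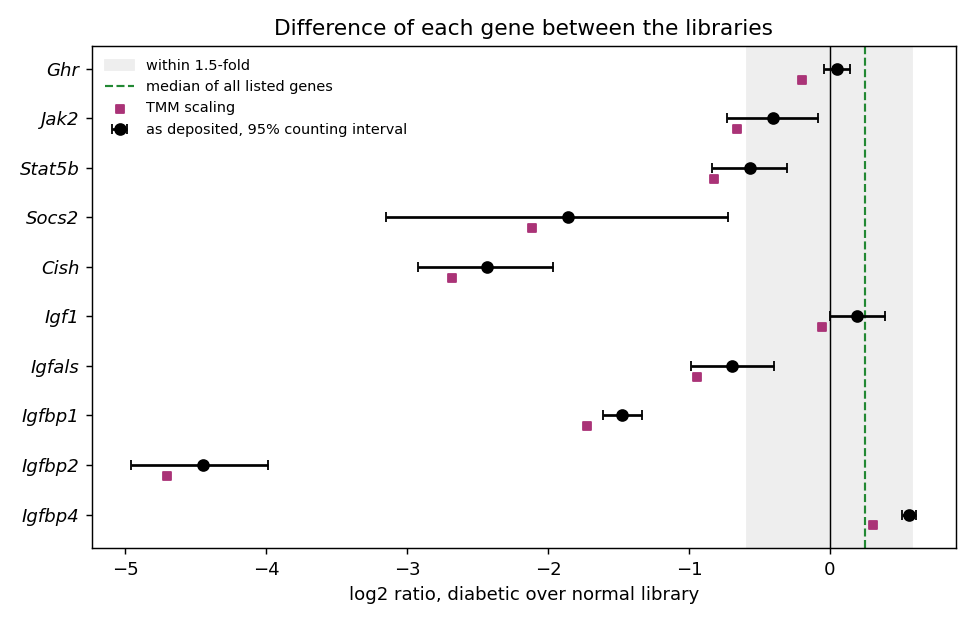
Log2 ratio of diabetic over normal for the 10 axis genes, as deposited (circles, with 95% counting intervals) and under TMM scaling (squares), with the range within 1.5-fold shaded and the median of all listed genes dashed. Igfbp2 lies farthest from 0 at -4.45, and Ghr and Igf1 lie above 0 as deposited and below it under TMM scaling.

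Igf1, the main hepatic output of growth hormone, was at 35.4 TPM (364 reads) in the normal library and 40.6 TPM (548 reads) in the diabetic library. The log2 ratio was 0.20 (0.0022 to 0.39) as deposited and -0.057 under TMM scaling, so its direction depended on the scaling, and the difference was 1.15-fold. Its FDR was 0.076 in the exact binomial test. Relative to Ghr, Igf1 changed by 0.14 (-0.072 to 0.36) on the log2 scale. By level, Igf1 stood at rank 1381 in the normal library and at rank 1450 in the diabetic library.

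Igfals, which encodes the acid-labile subunit, was at 20.9 TPM (215 reads) in the normal library and 13.0 TPM (175 reads) in the diabetic library. It was 1.61-fold lower, with a log2 ratio of -0.69 (-0.99 to -0.40) and FDR = 8.4e-06 in the exact binomial test. Relative to Igf1 in the same library, Igfals changed by -0.89 (-1.24 to -0.53), so the difference from Igf1 did not depend on the scaling. Among the STAT5 target genes of the list, Cish, Socs2 and Igfals were at least 1.5-fold lower and Igf1 was not.

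Igfbp2 was at 63.2 TPM (650 reads) in the normal library and 2.89 TPM (39 reads) in the diabetic library. This was the largest difference among the 10 genes, 21.9-fold lower, with a log2 ratio of -4.45 (-4.96 to -3.99) and FDR = 1.5e-181 in the exact binomial test. The gene moved from rank 861 to rank 6606 by level, and 0.14% of the listed genes had a lower ratio. Igfbp1 was at 127 TPM (1305 reads) in the normal library and 45.8 TPM (618 reads) in the diabetic library, with a log2 ratio of -1.47 (-1.61 to -1.33). It was 2.78-fold lower, with FDR = 1.2e-103 in the exact binomial test. The ratio of Igfbp2 to Igfbp1 changed by -2.98 (-3.50 to -2.49), so both binding protein genes were lower and Igfbp2 was lower by more.

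Igfbp4, whose product is a binding protein known mainly as an inhibitor of IGF action, was the highest of the 10 by tags. It was at 458 TPM (4708 reads) in the normal library and 677 TPM (9143 reads) in the diabetic library. The log2 ratio of 0.56 (0.51 to 0.61) corresponds to 1.48-fold higher and lay just inside the threshold, although the FDR in the exact binomial test was 2.8e-107. Under TMM scaling the ratio was 0.31. Relative to Igf1, Igfbp4 changed by 0.37 (0.17 to 0.57), whereas Igfbp1 changed by -1.67 (-1.91 to -1.43) and Igfbp2 by -4.65 (-5.19 to -4.14).

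**Figure D3:**
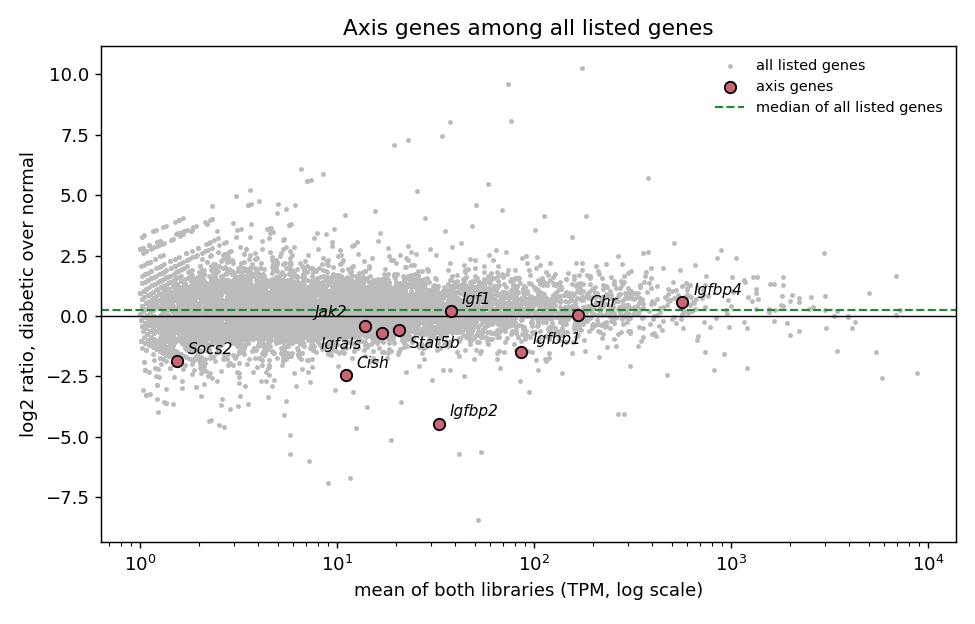
Log2 ratio of diabetic over normal against mean level in TPM (log axis) for the listed genes, with the 10 axis genes labelled and genes at 0 reads in a library drawn at their bound. Igfbp2 and Cish lie near the lower edge of the genes of similar level, and Ghr, Igf1 and Igfbp4 lie within the main body.

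Among the tags of Igfbp1, Igfbp2 and Igfbp4 together, the composition differed between the libraries. Igfbp1 made up 19.6% of these 6663 tags in the normal library (95% Clopper-Pearson interval 18.6 to 20.6) and 6.31% of 9800 tags in the diabetic library (5.83 to 6.81). Igfbp2 made up 9.76% (9.05 to 10.5) in the normal and 0.398% (0.283 to 0.544) in the diabetic library. Igfbp4 accordingly made up 70.7% (69.5 to 71.8) and 93.3% (92.8 to 93.8). The shares add up to the whole, so a lower share of the others is a higher share of Igfbp4, whose tag is the shared one. The sum of the 3 was 648 TPM in the normal and 725 TPM in the diabetic library. When all 7 listed Igfbp genes formed the total, Igfbp2 made up 8.45% and 0.348% and Igfbp4 61.2% and 81.6%. These are shares of tags and not of protein.

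**Figure D4:**
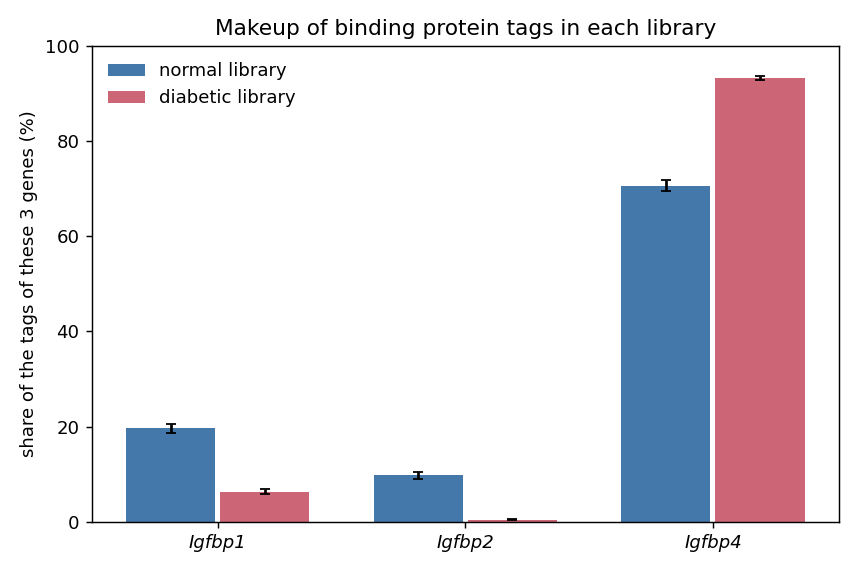
Share of Igfbp1, Igfbp2 and Igfbp4 in their summed tags, in percent, for the normal library (6663 tags) and the diabetic library (9800 tags), with 95% Clopper-Pearson intervals. Igfbp4 takes 70.7% in the normal and 93.3% in the diabetic library, and the other genes take less in the diabetic library.

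Of 14 further binding protein and protease genes, 7 had a value, 3 of them at least 1.5-fold higher and 0 lower (34.4% and 15.3% over all genes), with a median log2 ratio of 0.15. Igfbp5, a binding protein made by mesenchymal cells among others, was at 0.49 TPM (5 reads) in the normal and 4.52 TPM (61 reads) in the diabetic library, with log2 ratio 3.21 (1.91 to 4.89). It was the only gene of these 3 that also passed the FDR threshold. Igfbp5 and Igfbp6 (0.88 and 1.41 TPM), both among the 3, lay under 1 TPM in the normal library and were listed through their diabetic level. Igfbp7, the most abundant of this group by tags, was at 93.7 and 93.6 TPM. Under TMM scaling 1 of the 7 was higher and 1 lower. Of 3 IGF2 mRNA binding protein genes 1 had a value, Igf2bp3, with 22 reads in the normal and 0 in the diabetic library. This is at least 9.64-fold lower against a floor of 3 reads in the diabetic library. With a mean of 1.075 TPM, Igf2bp3 was listed through its normal level (2.14 TPM).

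Of 7 genes for IGF2, IGF and insulin receptors and their substrates, 4 had a value. Igf2r, the receptor that clears IGF2, was at 6.62 TPM in the normal and 10.7 TPM in the diabetic library, with log2 ratio 0.70. Irs1, a docking protein of the insulin and IGF1 receptors, was at 7.0 and 4.59 TPM, a log2 ratio of -0.61. Neither reached an FDR under 0.001 in the exact binomial test, and under TMM scaling Igf2r no longer differed 1.5-fold. Insr, the insulin receptor gene and the most abundant of the group by tags, was at 36.6 and 36.7 TPM.

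Of 8 other receptor, kinase and STAT genes, 5 had a value, with 1 at least 1.5-fold higher and 1 lower (34.4% and 15.3% over all genes). Their median log2 ratio was -0.28. Jak1, a kinase used by many cytokine receptors, was at 26.7 TPM (274 reads) in the normal and 12.2 TPM (165 reads) in the diabetic library, with log2 ratio -1.13 with FDR = 6e-15 in the exact binomial test. Tyk2, a kinase of the same family, was at 6.71 and 10.4 TPM, a log2 ratio of 0.64 that missed the FDR threshold and fell under 1.5-fold with TMM scaling. Stat3, the most abundant of the group by tags, was at 49.4 and 40.7 TPM.

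Of 18 other inhibitors and adaptors of growth hormone signalling, 13 had a value, with 2 at least 1.5-fold higher and 3 lower (34.4% and 15.3% over all genes). Their median log2 ratio was -0.15. Sirpa, a transmembrane protein that recruits tyrosine phosphatases, was at 13.6 TPM in the normal and 7.55 TPM in the diabetic library, with log2 ratio -0.85, and was the only gene of this group to pass the FDR threshold as well. The phosphatase gene Ptpn2 had a log2 ratio of 0.96 and Ube2q1, a ubiquitin-conjugating enzyme gene, of 0.71. The other 2 genes past 1.5-fold, Socs3 (22 and 18 reads) and Sh2b2 (13 and 11 reads), had intervals that include 0. Grb2, an adaptor and the most abundant of the group by tags, was at 34.7 and 34.5 TPM. Under TMM scaling 1 of the 13 was higher and 6 lower.

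**Figure D5:**
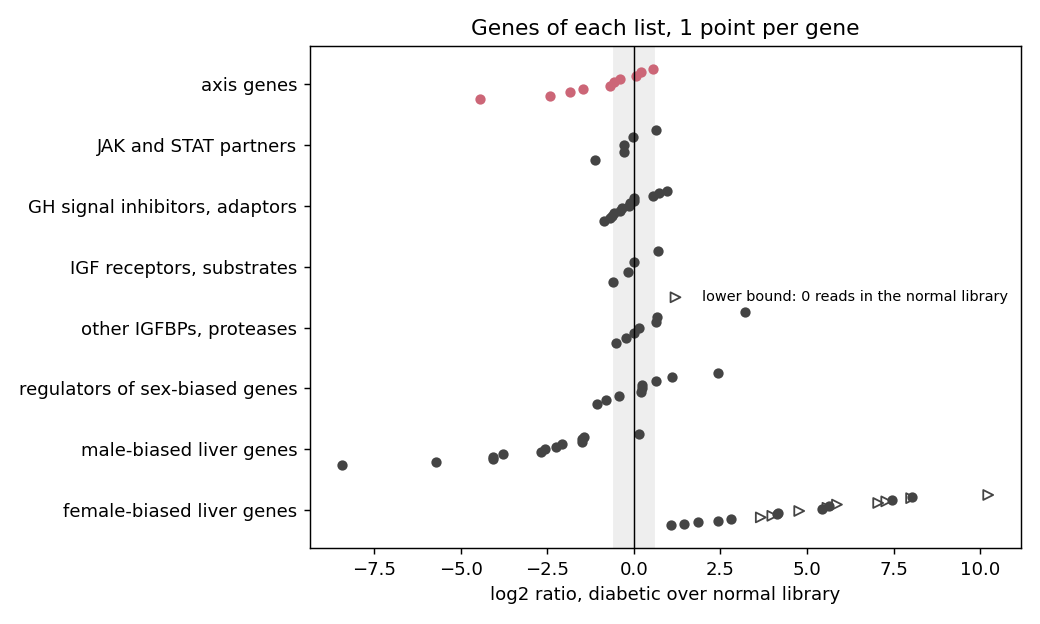
Log2 ratio of diabetic over normal, as deposited, for the axis genes, the other pathway lists and the sex-biased liver genes, 1 point per gene, with the range within 1.5-fold shaded and lower bounds drawn as open triangles. Male-biased genes lie below 0 but for 1 of 13, and female-biased genes lie above 0 in 20 of 20.

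Liver genes known to differ between the sexes were listed separately, and growth hormone and its release pattern were not measured here. Of 22 male-biased genes 13 had a value, and 12 were at least 1.5-fold lower and 0 higher, against 15.3% and 34.4% over all genes, with a median log2 ratio of -2.56. The 6 most abundant of the 12 by tags were Mup3, Serpina3k, Cyp7b1, Nudt7, Mup20 and C8a, with log2 ratios from -4.06 (Cyp7b1) to -1.43 (C8a). Ces5 was the exception at 0.15. Of the female-biased genes 20 of 27 had a value, and all 20 passed 1.5-fold upwards, against 34.4% over all genes. Of these, 13 lay under 1 TPM in the normal library and so were listed through their diabetic level, and their count is therefore not independent of that listing. Cd36, a fatty acid transporter gene, was at 12.1 TPM in the normal and 213 TPM in the diabetic library, and Cyp17a1, a steroid hydroxylase gene, at 2.63 and 114 TPM. Cyp2b9 had 0 and 4756 reads, at least 1206-fold higher against a floor of 3 reads. Under TMM scaling the counts were again 12 lower and 20 higher. Both lists were chosen with earlier results of these data known. Their counts therefore describe the listed genes and are no test against the shares over all genes. Mup, Cyp2b and other genes of these lists have close copies, and reads of such copies could be split or merged by the counting.

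Of 13 regulators of sex-biased liver genes, 9 had a value, with 3 at least 1.5-fold higher and 2 lower (34.4% and 15.3% over all genes). All 5 had an FDR under 0.001 in the exact binomial test, where 22.9% of all genes were higher and 8.19% lower with both criteria. Nr1i3, the nuclear receptor CAR, was at 32.5 TPM in the normal and 176 TPM in the diabetic library, with log2 ratio 2.44. Hnf4a, a factor that maintains hepatocyte identity, was at 96.8 and 46.2 TPM, a log2 ratio of -1.07. Foxa3 had a log2 ratio of -0.81 and Cebpb of 0.65. Cebpa, the most abundant of the group by tags, was at 218 and 255 TPM. Under TMM scaling 2 were higher and 3 lower, as Cebpb fell under 1.5-fold and Bcl6 (log2 ratio -0.44 as deposited) passed it downwards.

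The tissue label was checked on 8 of 10 hepatocyte marker genes with a value, which summed to 18546.8 TPM in the normal and 18518 TPM in the diabetic library, with Alb at 6801 and 6912 TPM. Most of the sum came from Alb, Trf and Ahsg, while Apob was at 804 and 147 TPM (log2 ratio -2.45) and Cps1 at 130 and 317 TPM (1.28). Markers of other cell types were present in both libraries. Of 12 Kupffer cell and macrophage markers 9 had a value, with 1 higher and 5 lower at 1.5-fold (34.4% and 15.3% over all genes). Their sum was 331 TPM in the normal and 196 TPM in the diabetic library. The 5 lower were C1qa, C1qc, Csf1r, Emr1 and Lyz2, with log2 ratios from -1.80 to -1.03. C1qa alone was at 176 and 50.7 TPM and made up most of the difference in the sum. The 1 higher was C1qb, at 38.1 and 57.8 TPM (log2 ratio 0.60), and Cd5l was at 64.7 and 62.9 TPM. Clec4f, which defines Kupffer cells, was at 1.46 and 1.11 TPM (15 reads in each). Endothelial markers (10 of 10) summed to 164 and 145 TPM, stellate cell markers (8 of 10) to 138 and 189 TPM, cholangiocyte markers (3 of 6) to 61.5 and 107 TPM with Spp1 alone at 57.2 and 103 TPM, T, NK and B cell markers (4 of 10) to 101 and 158 TPM with Cd74 alone at 93.3 and 152 TPM, and the erythroid marker Alas2 (1 of 7) was at 51.9 and 44.2 TPM. The part of these differences in the results for the axis genes was not tested. In whole liver, fewer cells of a type and less RNA per cell cannot be told apart.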

How the data were processed

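Liver poly(A) RNA of 1 normal and 1 diabetic library was digested as cDNA with Dpn II and sequenced as digital gene expression tags. The values deposited by the authors, which they call TPM, are RPM values: tags of a gene per 1000000 clean tags, kept to 2 decimals, with 0.01 in place of 0. The lowest mean in the table was 1.005 TPM, and tags were compared with RefSeq by the authors. The submitters' processing notes name mm9, whereas sequences shown here come from GRCm38. The study tells tags of 1 gene from tags of several genes, and the table does not say which of them enter its values.

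Each value was converted to reads by the step between neighbouring values (8513 of 8513 and 8536 of 8537 values whole, within 0.0051 TPM), and libraries were grouped by their labels. The listed genes held 37.1% of clean tags in the normal and 44.4% in the diabetic library. These shares lie on either side of the average that the study gives for tags of unique genes. Both lie below its average for tags mapped to any gene. Whether shared tags were counted was not tested. A difference of 1.5-fold on the deposited values was the main criterion. The second was an FDR under 0.001 (two-sided exact binomial test, Benjamini-Hochberg over 8551 genes). Intervals are 95% Clopper-Pearson intervals, and they cover counting error only, since there was 1 library per group. Tags were counted without molecular identifiers, so copies of the same molecule could not be told from separate molecules. The intervals and the FDR do not allow for such copies. A gene at 0 reads in a library was given a bound against 3 reads in that library, and genes at 1 to 3 reads kept their ratio.

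Genes named outside the axis are those at least 1.5-fold different with an interval on 1 side of equality, at most 6 per list by mean level, and the most abundant of each list. Cell type lists are summarised by their sums, with single markers named after their values were seen, as were Ces5, Igfbp6, Socs3, Sh2b2 and Bcl6. For 1 regulator gene, single values are left out, and it enters the counts of its list only. The axis genes and lists were chosen with earlier results of these data known. Alternatives were 4 scalings (TMM trimmed 30% of ratios and 5% of abundances), pseudocounts of 0.1 and 1 TPM, a mean of at least 5 TPM, a fold of 2, the Audic-Claverie test, other totals and a narrower motif. Scripts were tested on simulated data. Computation used scipy 1.17.1 and numpy 2.4.6 under Python 3.11.15, tables were handled with pandas 2.3.3, and plots were drawn with matplotlib 3.10.9.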

Additional observations from a re-analysis of the deposited data

How the results depend on the processing

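Under the 4 other scalings, 6 of the 10 axis genes kept direction and side of the 1.5-fold threshold, Jak2 and Stat5b passed it, and Ghr and Igf1 turned below 0. The log2 ratio of Ghr was -0.2061 by the sum of listed genes, -0.1994 by TMM, -0.2524 by median ratio and -0.2149 with the upper quartile. That of Igf1 was -0.06319, -0.05652, -0.1095 and -0.07198 in the same order. The number of axis genes lower with an FDR under 0.001 was 4 as deposited and 7 under each of these scalings, with Jak2, Stat5b and Socs2 added, and 7 also by fold alone. Over all genes, 2941 were higher and 1310 lower by fold as deposited, against 2028 and 2044 by the sum of listed genes, 2054 and 2023 by TMM, 1874 and 2189 by median ratio, and 1997 and 2076 for the upper quartile. With the FDR these counts were 1955 and 700 as deposited, 1249 and 1165, 1271 and 1147, 1135 and 1262, and 1220 and 1183. With a mean of at least 5 TPM, 9 axis genes remained and 4 were lower, Socs2 having been removed by that filter, and with a fold of 2, 4 were lower and 3 with the FDR. With that filter 1773 of all genes were higher and 658 lower by fold, and with a fold of 2, 1589 and 582. Pseudocounts changed no direction or call of the 10 genes, and the Audic-Claverie test also gave 4 lower. The narrower motif was found in 1 gene in place of 2. No paired analysis was possible because each group had 1 library, and none could be left out. Depth limits Socs2 most, at 9 reads in the diabetic library, and the cause of the shift between scalings was not tested.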
